A study of Mus musculus with 5 samples.

Results

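Astrocytes cultured from mouse cortex (Ctx) were compared with astrocytes cultured from mouse ventral midbrain (VM) that had received no virus. The comparison rests on 2 of the 5 RNA-seq libraries of the series, chosen by their labels, with 1 library a side. Of 20178 transcripts in the deposited tables, 12553 had an FPKM (reads per kilobase of transcript in a library scaled to 1000000 counted reads) above 1 in at least 1 of these 2 libraries, and these are the genes described. The series belongs to a study of SGK1 and inflammation in glia, in which cortical and VM cultures stood beside VM astrocytes that carried viruses and beside neural precursors.

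Both astrocyte cultures came from ICR pups at postnatal day 5 and were at passage 2, grown in astro-medium, with RNA prepared by Trizol. The labels call the cells astrocyte progenitor cells. The number of pups behind each culture and their sex were not given in the sources used here. Of the other 3 libraries, whose values are set beside the results, 2 came from transduced VM astrocytes of the same day, passage and strain, and 1 came from neural precursor cells (NPCs) that were taken from the embryonic cortex at day 12 and were also at passage 2. The labels of the transduced libraries contradict each other. The library titled C is entered as transduced with Nurr1+Foxa2-expressing lentiviruses, and the library titled NF as transduced with mock virus (control). They are therefore called here only by their titles. Foxa2 had 216 reads in the library titled NF, 15 in that titled C and 68 in the untransduced VM library, and Nr4a2, the gene of NURR1, had 183, 53 and 81, an order in which the virus genes are highest in the library titled NF.

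The Ctx library held 21435367 counted reads and the VM library 21301651, within a range of 20010818 to 22554835 over the 5 libraries. Ratios were taken after scaling to library totals, and log2 ratios are Ctx over VM with 0.5 reads added. A 95% interval of a ratio (exact, Clopper-Pearson) covers the error of counting alone, and in it PCR copies are counted as if they were separate molecules. No difference was tested between regions, because 1 library a side gives no spread between cultures, and region, culture and library cannot be told apart. A gene is called higher where the ratio was at least 2-fold, and an RNA at 0 reads is given as a bound against 3 reads in that library, a CPM (reads in a library scaled to 1000000) of 0.14. In bulk RNA, fewer cells of a type and less RNA per cell cannot be told apart. The library titled C stood apart from the other VM libraries in several marker lists, and its values are given with the lists it moved.

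Astrocytes differ between brain regions because the precursors that form them carry the transcription factors that divide the neural tube into forebrain, midbrain and hindbrain. Lhx2 and Emx genes mark the telencephalon, engrailed genes mark the midbrain and its border with the hindbrain, and Hox genes mark the hindbrain and spinal cord. Astrocytes also mature after birth, when they gain transporters, channels and gap junctions and leave the cell cycle, and cultures from young brains usually carry some microglia and meningeal cells.

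At least 2-fold higher levels were found for 564 genes in Ctx (4.49% of those tested) and for 1242 genes in VM (9.89%). At 4-fold the counts were 99 (0.789%) and 472 (3.76%). The median log2 ratio over all 12553 genes was -0.05. The plot of FPKM in both libraries shows the bulk of genes along the diagonal and the factors of the neural tube away from it on both sides. Nearest to the limit, Fstl1 lay just inside 2-fold toward VM and Rplp0 just outside, and Mt1 lay just inside toward Ctx and Jag2 just outside.

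**Figure D1:**
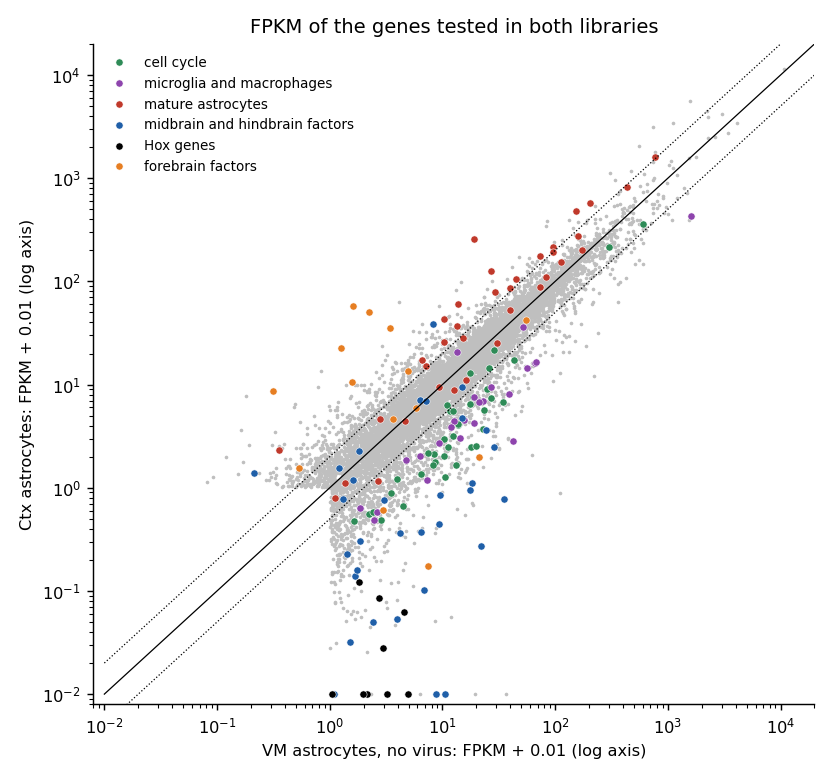
FPKM of each of the 12553 genes tested, VM library on the horizontal and Ctx library on the vertical log axis, with 0.01 added, the solid line at equality and the dotted lines at 2-fold. Forebrain factors (orange) lie mostly above the diagonal, with Lhx2 at 50.6 in Ctx and 2.20 in VM, while Hox genes (black) and most midbrain and hindbrain factors (blue) lie below it.

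Among transcription factors of the forebrain, a set that includes Lhx2, Dmrta2 and Nr2e1 was higher in Ctx. Of 30 listed, 14 were tested and 8 were at least 2-fold higher in Ctx, beside the 4.49% of all genes, while 3 were higher in VM. Of the 14, 2 passed the filter only through Ctx, Dmrta2 and Dlx1, and 2 only through VM, Six3 and Nkx2-1. The list median was 1.49, and 0.36 over all 25 members with reads in either library. Over the 10 with an FPKM above 1 in both libraries it was 2.10. Lhx2, a cortical selector (chr2:38339271-38369737 on GRCm38), had 2495 reads in Ctx and 108 in VM, a log2 ratio of 4.51 (interval 4.24 to 4.81). Dmrta2, which acts in the dorsal telencephalon, had 549 and 19 reads. Nr2e1, the orphan receptor TLX of forebrain neural stem cells, had 2445 and 235. These 3 genes were among the 15 largest differences toward Ctx among genes whose CPM reached 10 there, and each was lower than in Ctx in the transduced VM libraries too. Lhx2 had 21 reads in the library titled C and 109 in that titled NF. Emx2, a cortical area factor, was 6.81-fold higher in Ctx. Smaller differences were seen in Otx1 (2.73-fold) and Dlx1 (2.92-fold, with 91 and 31 reads).

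Not every forebrain factor followed. Pax6, which is used in the forebrain, hindbrain and spinal cord, had 533 reads in Ctx and 519 in VM, and Nr2f1, the orphan receptor COUP-TFI, had 2230 and 2871. Nr2f2, its relative COUP-TFII, had 179 reads in Ctx and 1886 in VM, 10.6-fold. Six3, a factor of the anterior forebrain and eye, had 47 reads in Ctx and 234 in VM. Nkx2-1, a factor of the ventral forebrain and hypothalamus, had 8 and 356 reads, a 44.8-fold difference toward VM (log2 -5.40, interval -6.71 to -4.49). The VM library thus held reads of factors from in front of the midbrain as well, and in the other VM libraries Nkx2-1 had 17 reads (titled C) and 296 (titled NF). Some cortical factors were near 0 in both cultures. Tbr1, of cortical neurons, had 0 and 1 reads, Neurod6 had none in either, and Emx1, of cortical progenitors, had 2 and 0. Bcl11b, of deep-layer neurons, had 156 and 125 reads and stayed under an FPKM of 1 in both.

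Factors of the midbrain and hindbrain were higher in VM. Of 51 listed, 32 were tested, 23 were at least 2-fold higher in VM (9.89% of all genes were) and 2 in Ctx, and the median log2 ratio was -3.50. Of the 32, 20 passed the filter only through VM, where they were high, so this share does not stand for the whole list. With an FPKM above 1 in both libraries 11 remained, with a median of -0.43, and over the 50 members with any reads the median was -3.15. Pax3, a dorsal neural tube and neural crest factor (chr1:78101267-78197136), had no reads in Ctx and 754 in VM, at least 253-fold. Otx2, which sets the rear border of the midbrain and is also kept in the choroid plexus, had none and 416, at least 140-fold. Otx2 had 41 reads in the library titled C, 498 in that titled NF and 193 in NPCs. The engrailed genes of the midbrain and its border with the hindbrain were both among the higher genes. En1 had 20 reads in Ctx and 350 in VM, and En2 had 7 and 514. In the libraries titled C and NF and in NPCs, En1 had 211, 270 and 5 reads and En2 had 243, 437 and 232.

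The iroquois genes, which act in the caudal neural tube, had some of the highest levels of this group by FPKM. Irx1 had 34 reads in Ctx and 1558 in VM (FPKM 0.768 and 35.4). Irx2 had 15 and 1230, an 82.5-fold difference with a log2 interval of -7.21 to -5.64. Irx3 was 11.5-fold and Irx5 16.8-fold higher in VM. All of these were also present in the transduced VM libraries, with 1313 and 1290 reads of Irx1 in those titled C and NF.

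Floor plate genes formed another set within this list. Shh, the ligand secreted by the floor plate, had 54 reads in Ctx and 1003 in VM. Foxa1 and Foxa2, forkhead factors of the floor plate and of dopamine neuron precursors, had 3 and 1 reads in Ctx against 267 and 68 in VM. Their log2 ratios of -6.26 and -5.52 have wide intervals (-8.77 to -4.92, and -11.42 to -3.57) because the Ctx counts were so small. Lmx1a, which specifies midbrain dopamine precursors, had 1 and 64 reads, but stayed under an FPKM of 1 in both libraries and was not tested. Nr4a2 was expressed at a low level in both, with 106 reads in Ctx and 81 in VM. Tyrosine hydroxylase (Th) had 5 and 3 reads, and the dopamine transporter gene Slc6a3 had 2 and 4.

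Toward Ctx, the exceptions on this list were Meis2 and Pitx3. Meis2, a TALE homeobox gene also used in the forebrain, had 3881 reads in Ctx and 819 in VM. Pitx3, a factor of midbrain dopamine neurons and lens, had 41 and 6. Its counts were low in the other cultures too, with 2, 13 and 10 reads in the libraries titled C and NF and in NPCs. Tcf7l2 (618 and 636 reads), Nkx2-2 (313 and 274) and Pax2 (77 and 103) differed by less than 2-fold. The plot of regional factors by library sets these values beside those of the transduced VM libraries and NPCs.

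**Figure D2:**
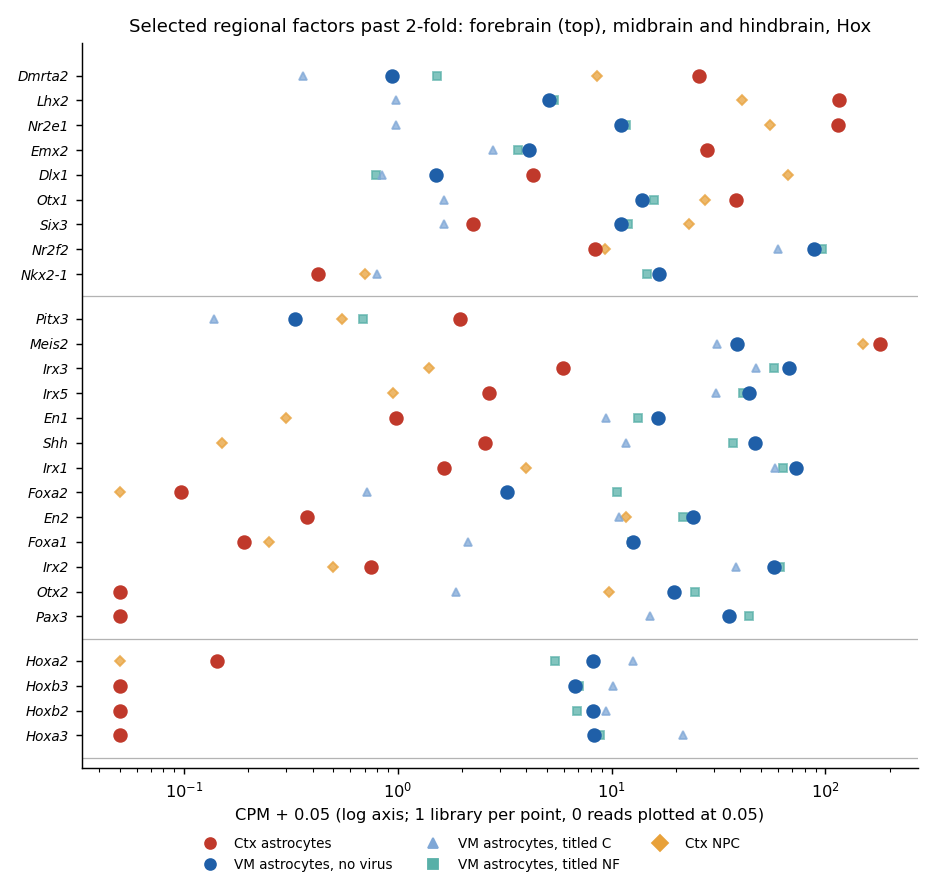
CPM (with 0.05 added, log axis) of regional factors named in the text that differed by at least 2-fold, 1 point per library, forebrain factors at the top, midbrain and hindbrain factors in the middle, Hox genes at the bottom. Red points (Ctx) lie to the right of the blue point (VM) for Dmrta2 to Otx1 and to the left for Six3, Nr2f2, Nkx2-1 and all rows below Meis2.

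Hox genes were read almost only in the VM cultures. Summed over 27 genes, there were 15 Hox reads in Ctx and 1329 in VM, an 89.2-fold ratio per library total, with 2209 in the VM library titled C, 1292 in that titled NF and 1 in NPCs. All 9 that were tested were at least 4-fold higher in VM (3.76% of all genes were). The median log2 ratio was -6.77, or -5.58 with the genes at 0 set to their bound. These 9 passed the filter only through the VM library, so the share says nothing of the 18 not tested, which had between 0 and 59 reads in VM. Hoxa3 had no reads in Ctx and 175 in VM, Hoxb2 none and 173, Hoxb3 none and 143, and Hoxa2 had 2 and 173. Along the clusters the VM library held more than 3 reads from Hoxa2 to Hoxa5, from Hoxb2 to Hoxb9, from Hoxc4 to Hoxc6 and from Hoxd3 to Hoxd8. Hoxa9 and Hoxb1 had no reads in either library, and Hoxc9 had 1 in VM. Hox genes mark tissue behind the midbrain, as Nkx2-1 marks tissue in front of it, so the VM library held reads of factors from outside its labelled region on both sides.

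Lists of regional astrocyte genes behaved less uniformly than the patterning factors they contain. Beside their counts, 4.49% of all genes were higher in Ctx and 9.89% in VM. Among 9 telencephalic astrocyte genes, all tested, 4 were at least 2-fold higher in Ctx, among them Lhx2, Emx2 and Zbtb20. Zbtb20, a zinc finger factor of hippocampus and astrocytes, had 762 reads in Ctx and 234 in VM. It had 181 reads in the library titled C but 579 in that titled NF, against which Ctx was less than 2-fold higher. The others, Mfge8, Lfng, Eogt, Chrdl1 and Gm266, stayed within 2-fold, and the list median was 0.31. Of 12 non-telencephalic astrocyte genes, 10 were tested, 5 were higher in VM (Agt, Irx2, Irx5, Irx3 and Pax3) and 2 in Ctx (Gfap and Kcnj10), with a median of -0.83, or 0.04 where an FPKM above 1 was asked of both libraries. Agt, the angiotensinogen gene, had 46 and 104 reads. Slc6a11, the GABA transporter GAT3, had 51 and 23 and was not tested.

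The promoters of genes far apart in the comparison are shown for contrast in base composition. Each is the 250 bases before a transcript start in RefSeq on GRCm38.p6, from 5′ to 3′ on the gene's strand, with CG pairs and any TATAAA in capitals. Lhx2 (chr2:38339031-38339280, plus strand, 1 of 2 starts in the table) had 2495 reads in Ctx and 108 in VM, and En1 (chr1:120602237-120602486, plus strand) had 20 and 350. Cxcl15 (chr5:90794284-90794533, plus strand) and Il19 (chr1:130940116-130940365, minus strand) were among the secreted cytokines with the largest differences toward VM.
Lhx2: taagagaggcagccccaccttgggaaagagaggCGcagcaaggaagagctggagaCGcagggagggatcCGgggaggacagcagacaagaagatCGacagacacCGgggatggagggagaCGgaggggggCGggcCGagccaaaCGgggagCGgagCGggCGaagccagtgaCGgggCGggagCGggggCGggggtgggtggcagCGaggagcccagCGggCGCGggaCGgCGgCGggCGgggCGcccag
En1: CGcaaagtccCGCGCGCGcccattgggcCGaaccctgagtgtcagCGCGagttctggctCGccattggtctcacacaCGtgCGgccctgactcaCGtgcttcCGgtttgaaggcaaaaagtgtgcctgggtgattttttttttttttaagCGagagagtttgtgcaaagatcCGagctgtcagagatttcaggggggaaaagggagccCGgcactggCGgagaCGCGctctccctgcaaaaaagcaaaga
Cxcl15: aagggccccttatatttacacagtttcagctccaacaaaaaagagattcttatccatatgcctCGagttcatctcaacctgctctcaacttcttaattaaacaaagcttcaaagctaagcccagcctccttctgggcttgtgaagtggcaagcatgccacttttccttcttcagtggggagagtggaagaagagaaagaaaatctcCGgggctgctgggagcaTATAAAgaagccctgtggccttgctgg
Il19: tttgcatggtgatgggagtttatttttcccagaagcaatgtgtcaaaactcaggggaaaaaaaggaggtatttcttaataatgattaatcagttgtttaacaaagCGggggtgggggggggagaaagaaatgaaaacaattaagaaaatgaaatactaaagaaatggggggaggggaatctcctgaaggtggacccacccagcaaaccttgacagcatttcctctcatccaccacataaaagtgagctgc

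The promoters of Lhx2 and En1 hold 25 and 19 CG pairs, those of Cxcl15 and Il19 2 and 1. Over the forebrain, midbrain, hindbrain and Hox factors tested, 39 of 55 matched and their 51 promoters held a median of 18 CG pairs. Over the cytokine and chemokine genes tested, 21 of 30 matched and the median over 24 promoters was 4.5, beside 15 for all genes tested and 6 for the whole table of 32851 promoters. TATAAA, read on both strands (TATAAA or TTTATA), lies in 9.8% of the regional factors' promoters, in 37.5% of those of the cytokines, in 6.38% of those of all genes tested and in 12.4% of the whole table. Genes at least 2-fold higher in Ctx had a median of 12 CG pairs and those higher in VM 8. These are descriptions of letters in a window, and no binding was measured.

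Genes of the signals that pattern the neural tube lay on both sides. Of 14 hedgehog pathway genes tested, 4 were higher in VM (9.89% of all genes were) and 1 in Ctx (4.49%), with a median of -0.38. Of the 14, 4 passed the filter only through VM. Over the 10 with an FPKM above 1 in both libraries the median was -0.16. Beside Shh, Hhip, a hedgehog-binding inhibitor induced by the pathway, had 14 reads in Ctx and 764 in VM, a 54.9-fold difference. Gli1, a transcription factor and readout of the pathway, had 39 and 119 reads, and Scube1 had 66 and 177. In contrast, the receptor Ptch1, another target of the pathway, had 749 and 879 reads, Smo had 3048 and 2981, and Gli3 had 1102 and 1180. Dhh, the desert hedgehog ligand, was 2.36-fold higher in Ctx.

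Among Wnt ligands and secreted inhibitors, 25 were tested, 11 were higher in VM (9.89% of all genes were) and 3 in Ctx (4.49%). Of the 25, 8 passed the filter only through VM. The median was -0.78, or -0.17 with an FPKM above 1 in both libraries. Wif1, a secreted Wnt inhibitor, had 2 reads in Ctx and 414 in VM (log2 -7.38, interval -10.75 to -5.84). Rspo2, a secreted enhancer of Wnt signals, had none and 80, at least 26.8-fold. Wnt11 was 4.02-fold and Sfrp1, by FPKM the most abundant of these inhibitors in VM (149), 2.86-fold higher in VM. Toward Ctx were Wnt7a, a ligand of the developing cortex, with 1895 and 488 reads, Wnt5b with 2596 and 1048, and Sfrp4 with 895 and 109. The target gene Axin2 differed by less than 2-fold (546 and 922 reads). Against the VM library titled C the Wnt list had a median of 0.83 in place of -0.78, and the hedgehog list 0.40.

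Of 22 tested genes for BMP ligands and antagonists, 8 were higher in VM (9.89% of all genes were) and 2 in Ctx (4.49%). Of the 22, 2 passed the filter only through VM and 2 only through Ctx. The median was -0.57 (0.06 against the library titled C). Gdf10 had 15 and 302 reads, and Grem1, a BMP antagonist, had 50 and 551. Bmp4 was 2.37-fold higher in VM, with 463 and 1090 reads, and 80 in the library titled C. Bmp3 and Gdf5 were above 2-fold toward Ctx with few reads (156 and 58, and 66 and 31).

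**Figure D3:**
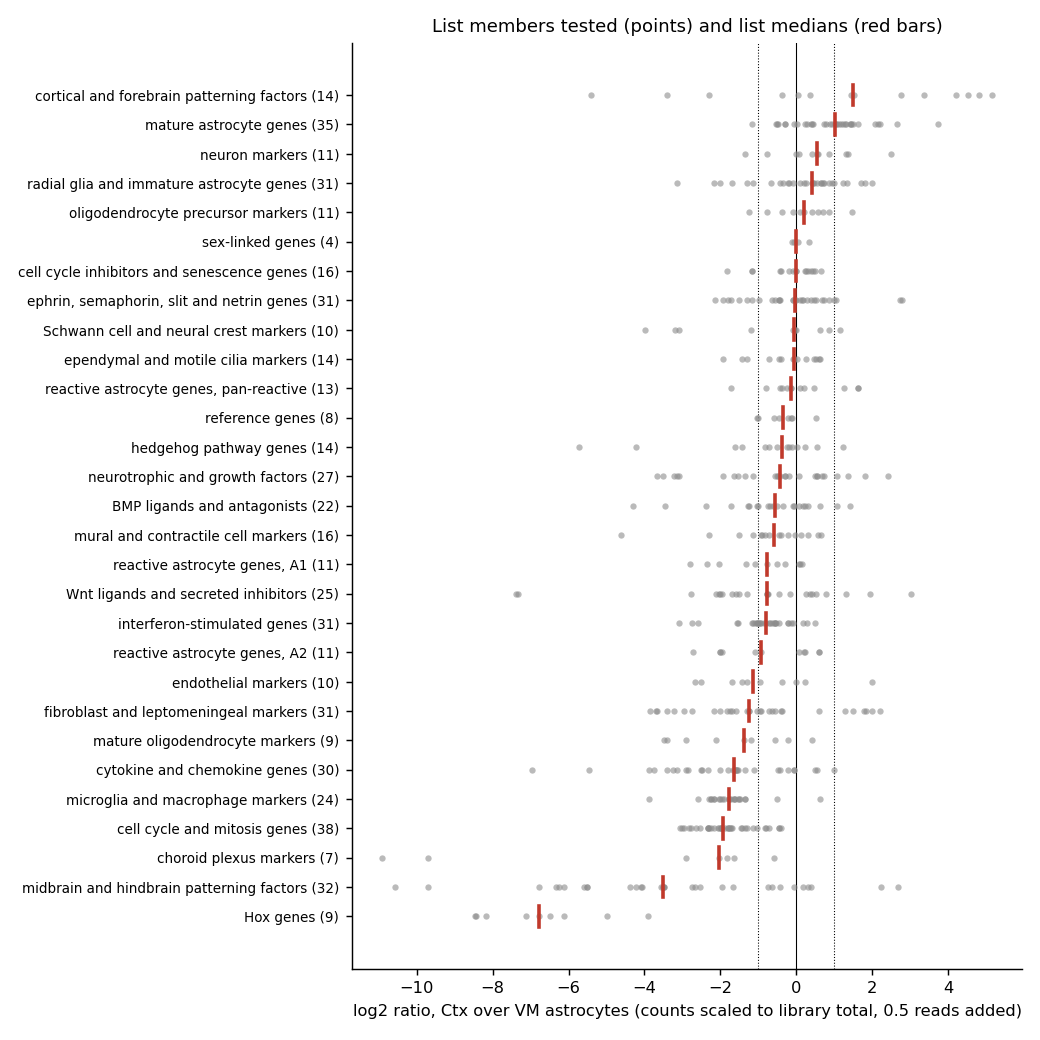
Log2 ratio of each tested member (grey points) and the median (red bar) of each gene list, Ctx over VM, with the number of tested members in brackets and dotted lines at 2-fold. Forebrain factors have a median of 1.49 and mature astrocyte genes of 1.02, while midbrain and hindbrain factors lie at -3.50 and Hox genes at -6.77.

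Genes of mature astrocytes were mostly higher in Ctx. Of 41 listed, 35 were tested, 18 were at least 2-fold higher in Ctx (4.49% of all genes were) and 1 in VM (9.89%), and the median log2 ratio was 1.02. Of the 35, 1 passed the filter only through Ctx and 1 only through VM. The summed level of the list was a CPM of 15050 in Ctx and 6637 in VM, with 6938 and 5479 in the libraries titled C and NF and 20000 in NPCs. Atp1b2, a sodium pump subunit, had 36381 reads in Ctx and 12946 in VM, 2.79-fold, an FPKM of 572 and 205. Kcnj10, the inward rectifier Kir4.1 that clears potassium, had 6970 and 1570 reads, and 4952 in the library titled C.

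Glutamate transporter genes followed the same direction. Slc1a2, the transporter GLT-1 that rises with astrocyte maturation, had 10727 reads in Ctx and 2538 in VM, 4.20-fold. Slc1a3, the transporter GLAST present from early stages, had 19618 and 8681, 2.25-fold. The intermediate filament gene Gfap had 27820 and 8923 reads, 3.10-fold (FPKM 476 and 154), with 11040 and 4316 in the libraries titled C and NF. The water channel Aqp4 was 2.34-fold and the cell adhesion gene Hepacam 2.72-fold higher in Ctx. Metabolic genes were on the same side. Acsbg1, an acyl-CoA synthetase, had a CPM of 349 in Ctx and 75.7 in VM, but 274 in the library titled C. Higher in Ctx than in VM were also the glycolytic Aldoc at 2.48-fold and the glycogen-associated Ppp1r3c at 2.72-fold. Apoe, the main lipid carrier of astrocytes, was 2.06-fold higher at an FPKM of 1590 in Ctx and 770 in VM, but its CPM in the library titled C was 2070, close to the 2030 of Ctx.

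Several widely used astrocyte genes differed little. Aldh1l1 had 10227 reads in Ctx and 7446 in VM, Gja1, the gap junction gene connexin 43, had 5887 and 4853, Glul, the glutamine synthetase gene, had 6674 and 4951, and S100b had 319 and 449. Fgfr3 and Slc4a4 also stayed within 2-fold. Genes that mark late stages were near 0 in both cultures, with 2 and 1 reads of Gjb6 (connexin 30) and 20 and 24 of Slc7a10. All of Gfap, Aqp4, Slc1a3, Gja1 and Aldh1l1 were present in both libraries at an FPKM above 45. By FPKM the NPC library had at least as much of each (Gfap 2250, Aldh1l1 155 beside 154 in Ctx). These genes therefore do not set the astrocyte cultures apart from NPCs. Markers of microglia (summed CPM 843 in Ctx and 2645 in VM) and cell cycle genes (3084 and 5389) lay on the other side, and their part in the difference of mature genes was not tested.

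Genes of radial glia and immature astrocytes lay on both sides. Of 34 listed, 31 were tested, with 5 higher in Ctx (4.49% of all genes were) and 6 in VM (9.89%). Of the 31, 1 passed the filter only through Ctx and 2 only through VM. The median was 0.42, or 0.91 against the library titled C. In VM, Hmga2, a chromatin protein of young neural stem cells, had 3957 reads against 451 in Ctx, 8.83-fold. Tnc, the matrix protein tenascin C, had 90534 against 22572, 4.04-fold, an FPKM of 596 and 148. The RNA-binding Igf2bp1 was 4.52-fold and the Notch target Hes1 3.24-fold higher in VM. In Ctx, Ptprz1, a phosphatase of radial glia, had 7870 reads against 1957 in VM, and Sox9, a factor of astrocyte fate, was 2.36-fold higher. Nes, Vim, Sox2, Fabp7, Nfia and Id genes stayed within 2-fold. Lin28a had no reads in either library and Lin28b had 1 and 2. The paired plot of FPKM shows mature genes spread to the Ctx side and immature genes on both sides.

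**Figure D4:**
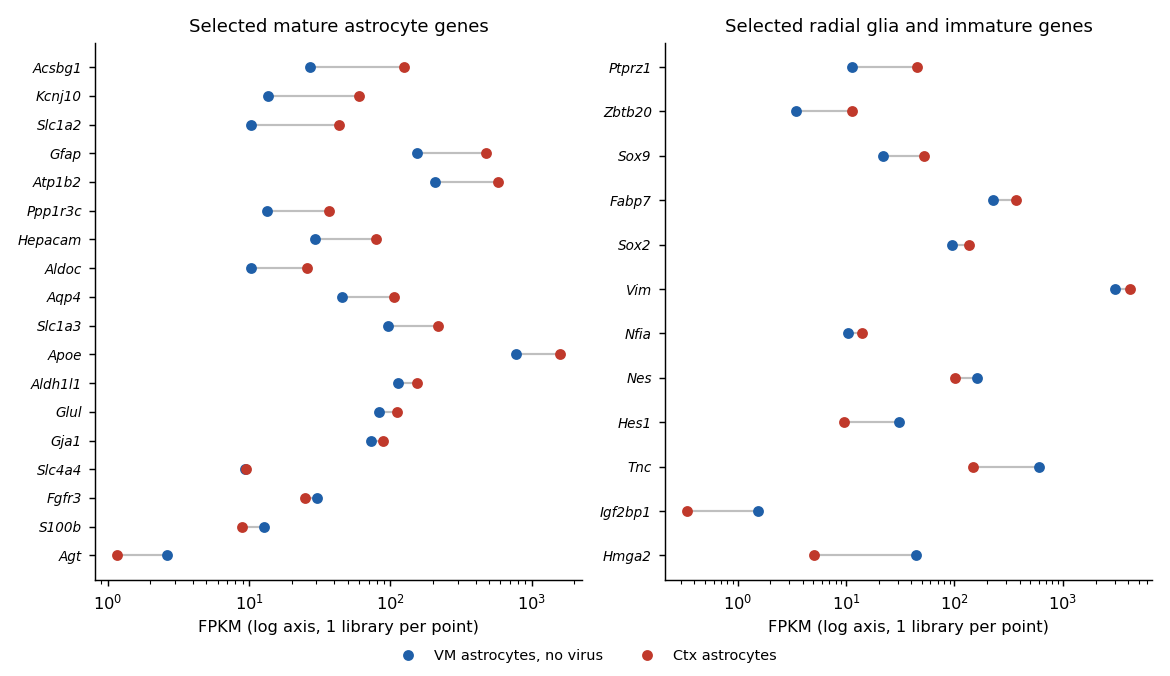
FPKM (log axis) in the VM library (blue) and the Ctx library (red) for the genes of mature astrocytes (left) and of radial glia and immature astrocytes (right) that the text names, ordered by their ratio. Acsbg1 at 125 in Ctx and 27.1 in VM tops the left panel, and Hmga2 at 5.03 and 44.4 closes the right panel.

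Every one of the 38 cell cycle genes was tested and all had a log2 ratio below 0. At least 2-fold higher in VM were 32 (9.89% of all genes were). Of the 38, 6 passed the filter only through VM, and with an FPKM above 1 in both libraries the median was -1.79. These values are set beside those of all 38 genes. The median over all 38 was -1.93. Their summed CPM was 3084 in Ctx, 5389 in VM, 6547 and 5062 in the libraries titled C and NF, and 2074 in NPCs. Mki67, a marker of cycling cells, had 381 reads in Ctx and 1855 in VM, 4.90-fold. Top2a, the topoisomerase of dividing cells, had 644 and 2613. Among genes of DNA synthesis, Tk1 (37 and 312 reads) was 8.49-fold higher in VM, and among those of mitosis Kif20a (123 and 988) was 8.08-fold and Ccna2 (154 and 1197) 7.82-fold. The D cyclins, which carried most of the summed level, differed less, Ccnd1 by 1.65-fold and Ccnd2 by 1.38-fold.

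Cell cycle inhibitors and senescence genes formed a separate list. Of 16 tested, none was 2-fold higher in Ctx (4.49% of all genes were) and 3 were higher in VM (9.89%), among them Cdkn1c and Lmnb1. The median was 0.00, or 0.86 against the library titled C. Cdkn1a, the p53 target p21, had 40306 reads in Ctx and 30725 in VM, Cdkn2a had 1550 and 1756, and Cdkn2b 6194 and 4973. Lmnb1, a nuclear lamina gene, was 2.24-fold and Cdkn1c, the inhibitor p57, 3.57-fold higher in VM. The paper uses loss of the Lmnb1 protein as a marker of senescence, so a higher level of this gene is not one.

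Markers of microglia and macrophages were higher in VM for most members. Of 33 listed, 24 were tested, 22 were at least 2-fold higher in VM (9.89% of all genes were) and none in Ctx, with a median of -1.78. Of the 24, 3 passed the filter only through VM, and with an FPKM above 1 in both libraries the median was -1.77. The summed CPM was 843 in Ctx, 2645 in VM, 6522 in the library titled C, 1830 in that titled NF and 226 in NPCs. Lyz2, the lysozyme of macrophages, made the most of it, with 9774 reads in Ctx and 36129 in VM, 3.72-fold, an FPKM of 430 and 1600. Itgam (CD11b) had 425 and 1893 reads, the receptor gene Csf1r 170 and 527, the lineage factor Spi1 37 and 226, and the complement gene C1qa 219 and 623. Pf4, a chemokine of macrophages, was highest in ratio at 14.9-fold, with 36 and 534 reads. Aif1, which encodes IBA1, had 9 and 46.

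Genes that define resting microglia in the brain were near 0 in both cultures. P2ry12 had 5 and 6 reads, Cx3cr1 15 and 30, Gpr34 1 and 1, and Siglech none. Fcrls had 5 and 1, against 734 in the library titled C. Tmem119 was present at 83 and 212 reads. Sall1, which is also expressed by neural precursors, had 2355 and 1517 and was among the tested members within 2-fold.

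Cytokine and chemokine genes were higher in VM together with these markers. Of 34 listed, 30 were tested, 22 were at least 2-fold higher in VM (9.89% of all genes were) and none in Ctx (4.49%). The median was -1.64, and the summed CPM was 1792 in Ctx and 3262 in VM. Of the 30, 6 passed the filter only through VM, and with an FPKM above 1 in both libraries the median was -1.57. Cxcl5, a chemokine for neutrophils, had 31 reads in Ctx and 3894 in VM, 126-fold (interval of log2 -7.54 to -6.47), with 1397 in the library titled C, 2181 in that titled NF and 158 in NPCs. Cxcl15, its neighbour on chromosome 5, had none in Ctx and 289 in VM, at least 96.9-fold, but only 3 in the library titled C. Il19, of the IL-10 family, had 1 and 262 reads, a ratio with a wide log2 interval of -13.35 to -5.55. Cxcl15 and Il19 are not on the list and are named by the size of their ratio.

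Inflammatory mediators of the study's interest were on the same side. Il6 had 47 reads in Ctx and 416 in VM, 8.91-fold. Il1b had 1 and 65, Il1a 66 and 378, and Tnf 21 and 65. Nos2, the inducible nitric oxide synthase gene, was 10.7-fold higher with 138 and 1466 reads, and Ptgs2, the gene of COX-2, 4.03-fold. Ccl2, a monocyte chemokine with an FPKM of 161 in Ctx and 556 in VM, was 3.45-fold and the alarmin Il33 7.23-fold higher. Csf1 (12057 and 12557 reads), Cx3cl1 (9618 and 11159) and Il18 (115 and 118) were nearly level. With the microglial markers 3.14-fold higher in summed CPM in VM, the part of these cells in the cytokine difference was not tested. The summed CPM of cytokines was 3847 in the library titled C, 2931 in that titled NF and 506 in NPCs.

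Interferon-stimulated genes and reactive astrocyte genes differed less. Beside the counts below, 9.89% of all genes were higher in VM and 4.49% in Ctx. Of 31 interferon-stimulated genes tested, 11 were at least 2-fold higher in VM and none in Ctx (median -0.79). Of these 31, 1 passed the filter only through VM. Gbp4 was 8.45-fold and Zbp1, a nucleic acid sensor, 6.74-fold higher in VM, while Ifit3 had 4941 reads in Ctx and 4069 in VM and Igtp was 1.41-fold higher in Ctx. Against the library titled NF in place of VM the median was -0.38. Among 13 pan-reactive astrocyte genes, 3 were higher in Ctx, the lipocalin Lcn2 (62974 and 20271 reads, 3.09-fold), the protease inhibitor Serpina3n (24159 and 10031) and Gfap, and 1 was higher in VM, Aspg. Of 11 A1 genes tested 5 were higher in VM, among them Srgn (6.97-fold) and Iigp1 (5.12-fold), and of 11 A2 genes 5 were, among them Tm4sf1 (6.54-fold) and S100a10 (3.92-fold). Srgn and Cd14, an A2 gene, are also expressed by macrophages.

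**Figure D5:**
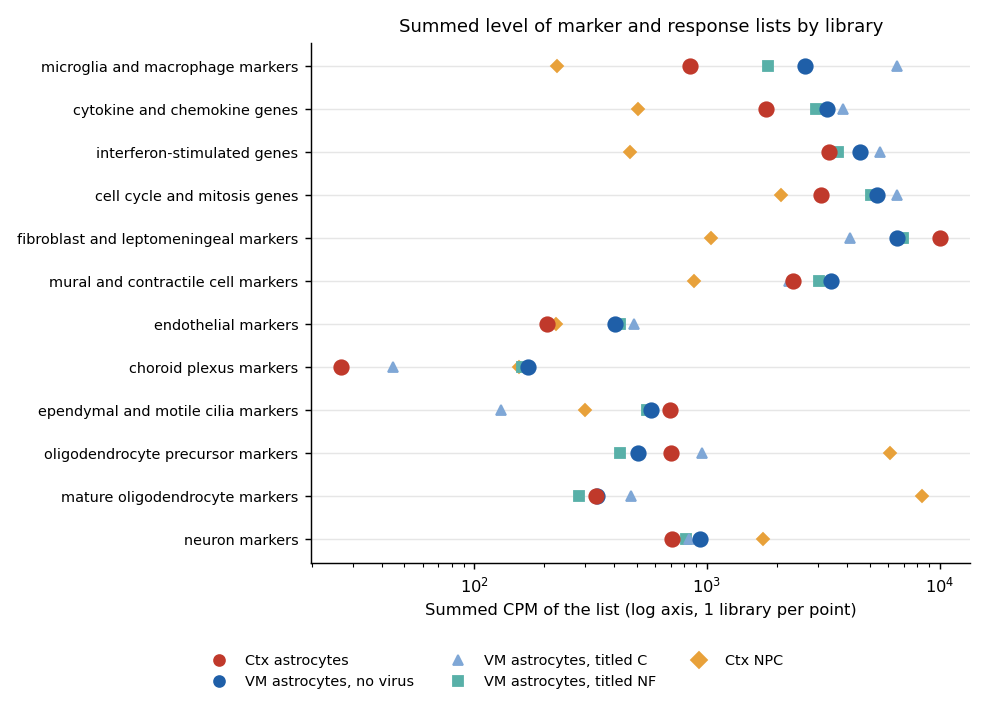
Summed CPM (log axis) of marker and response lists in each of the 5 libraries, 1 point per library. For microglia and macrophage markers Ctx lies at 843, VM at 2645 and the library titled C at 6522, while the sums of mature oligodendrocyte markers are 333 and 337, although 6 of their 9 tested members were higher in VM.

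Markers of fibroblasts and meninges were split. Of 36 listed, 31 were tested, 17 were at least 2-fold higher in VM (9.89% of all genes were) and 6 in Ctx (4.49%), with a median of -1.26. Of the 31, 2 passed the filter only through VM and 1 only through Ctx. In VM the retinoic acid enzyme of the meninges Aldh1a2 had 1540 reads against 119 in Ctx. The proteoglycan Dcn was 12.8-fold and the mesenchymal factor Twist1 14.6-fold higher in VM, and collagen Col1a1 had 7674 and 27128 reads. In Ctx, Igfbp2, a binding protein for insulin-like growth factors, had 158739 reads against 44151, and the surface protein Thy1 14451 against 3156. The summed CPM went the other way from the median, 10070 in Ctx and 6575 in VM, since Igfbp2 alone had a CPM of 7410 and 2070. Ogn (2.80-fold) and Fmod (2.42-fold), small matrix proteoglycans, were also higher in Ctx. The part of fibroblasts in the differences toward VM was not tested.

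Choroid plexus, endothelial and mural markers that differed were higher in VM, except for 1 endothelial gene. Beside the counts below, 9.89% of all genes were higher in VM and 4.49% in Ctx. Of 12 choroid plexus genes listed, 7 were tested, 5 of which passed the filter only through VM, and 6 were higher there, Otx2 among them. The summed CPM of the list was 26.7 in Ctx, 170 in VM, 44.9 in the library titled C and 160 in that titled NF. Ttr, the transthyretin gene, had the largest log2 ratio toward VM of all genes whose CPM reached 10 there. It had no reads in Ctx and 953 in VM, at least 320-fold, with 106 in the library titled C. Aqp1 was 3.55-fold higher, but Kl had 1 and 8 reads and Kcnj13 none and 19. Of 10 endothelial genes tested, 5 were higher in VM, such as Cdh5 with 69 and 391 reads, and 1 in Ctx, the transporter gene Slco1a4 at 4.02-fold. Of these 10, 2 passed the filter only through VM. The endothelial median was -1.13, or -0.67 with an FPKM above 1 in both libraries. The defining genes Pecam1 (13 and 9 reads) and Cldn5 (none) were near 0. Mural and contractile genes had a median of -0.60, and 4 of 16 were higher in VM, with Anpep at 4.89-fold. Of these 16, 2 passed the filter only through VM, and with an FPKM above 1 in both libraries the median was -0.47.

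Markers of neurons, ependymal cells and the oligodendrocyte lineage ranged from near 0 to levels as high as those of astrocyte genes. Beside the counts below, 4.49% of all genes were higher in Ctx and 9.89% in VM. Of 11 neuron markers tested, 3 were higher in Ctx, Elavl3 (724 and 127 reads), Slc17a7 and Gad1, and 1 in VM, Stmn2, with 4878 and 12377 (FPKM 119 and 304). Of the 11, 2 passed the filter only through Ctx. The median was 0.55, also with an FPKM above 1 in both libraries, or -0.17 against the library titled C. Rbfox3, which encodes NeuN, had 8 and 3 reads and Dcx 2 and 7. Foxj1, the factor of motile cilia, had 9981 reads in Ctx and 6527 in VM (FPKM 180 and 119), and 1214 in the library titled C. Of 14 ependymal genes tested, 3 were higher in VM (Cfap126, Tekt1 and Pifo), with a median of -0.07, or 2.05 against the library titled C. Of these 14, 1 passed the filter only through VM. Of 9 mature oligodendrocyte genes tested, 6 were higher in VM and none in Ctx, with a median of -1.39. Of these 9, 3 passed the filter only through VM, and with an FPKM above 1 in both libraries the median was -0.87. Mag, a myelin protein gene, had 8 and 89 reads and Mbp had 251 and 655 reads, against 75411 in NPCs. Mog had 2 reads in each astrocyte library. Olig1 (FPKM 109 and 67.6), Olig2, Pdgfra and Sox10 stayed within 2-fold. The oligodendrocyte precursor list had a median of 0.21, or -0.88 against the library titled C, and Cspg5 was 2.77-fold higher in Ctx. Of 10 Schwann cell and neural crest genes tested, 4 were higher in VM and 1 in Ctx, with a median of -0.05. Of these 10, 3 passed the filter only through VM. Tfap2a, a neural crest factor, had 26 reads in Ctx and 416 in VM and was 1 of the 4.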

How the data were processed

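Per the paper's methods, the authors trimmed reads at a quality score of 20, aligned them with STAR to GRCm38/mm10 and counted them with HTSeq-count on RefSeq exons. The submitters' processing notes name bcl2fastq 1.8.4, STAR, HTSeq and DESeq, and give mm9 as the build. Coordinates here come from RefSeq on GRCm38.p6 only. Whether counting used strand was not given in the sources used here, so overlapping and antisense genes cannot be told apart. The deposited tables hold raw whole-number counts per transcript. The deposited FPKM values, which the authors made by dividing counts by transcript length and library total, were recomputed from the counts to within a relative difference of 4.09e-05. No pair of the 5 libraries was identical.

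RefSeq accessions paired 19997 of 20178 transcripts with a symbol, GENCODE M21 a further 96, and 85 (9 of them tested) kept their identifier. Counts were scaled to library totals, 0.5 reads were added and log2 ratios taken. Genes with FPKM above 1 in at least 1 of the 2 libraries were kept, and 2-fold was the limit. With 1 library per condition there was no test. Intervals are exact 95% Clopper-Pearson intervals of counting error. A floor of 3 reads bounds genes at 0. Members and lists (31 lists, 730 entries, 722 matched) were chosen with earlier results of these data known. Named genes were the 15 largest differences each way whose CPM reached 10 in the library where they were higher, list members (first those past 2-fold with the highest FPKM, then defining members near 0), and the 10 highest FPKM in each library. Further members were named after their values were seen. Entries with no row in the tables were not analysed here, and some genes that the rule would name are not reported here. Alternatives were edgeR's TMM, DESeq2 size factors, upper-quartile scaling, totals without the 100 genes with most reads, 5 reads added or none, other filters, a 4-fold limit and each transduced VM library in place of VM. Calculations were tested on simulated data. The tools were edgeR 4.0.16 and DESeq2 1.42.0 in R 4.3.3, and pandas 2.3.3, scipy 1.17.1, numpy 2.4.6 and matplotlib 3.10.9 in Python 3.11.15.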

Additional observations from a re-analysis of the deposited data

How the results depend on the processing

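Under 4 other scalings and with 5 reads added, 154 of 155 list medians stayed within the 95% binomial range of the main median over its members. Under all alternatives 321 of 339 did. A scaling shifts all genes almost alike, and the range was wide for short lists (-2.31 to 4.51 for forebrain factors). These tallies are therefore a weak check. Medians near 0 changed sign, among them Schwann cell and neural crest markers (-0.05, and 0.01 with TMM). With the library titled C, neuron markers went from 0.55 to -0.17 and pan-reactive genes from -0.14 to 0.57. No scaling moved the median of all genes by more than 0.1. No paired analysis was possible because there was 1 library per group, and for the same reason no replicate was left out. Depth limits genes under 3 reads.

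Of 24 gene counts, 17 stayed within 1.5 times. With no filter on FPKM, 1319 genes were higher in Ctx and 2759 in VM. With FPKM above 1 in both libraries 755 were higher in VM, and where the higher CPM had to reach 10, 751. With the library titled C in place of VM 1482 were higher in Ctx. At 4-fold there were 99 and 472. The filters changed which genes were counted, and otherwise the cause was not tested.

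The Hox median was -4.67 with 5 reads added and -4.65 with no filter, and that of midbrain and hindbrain factors -0.43 with FPKM above 1 in both libraries, which leaves only 11 genes. No Hox gene passed that filter or the one on CPM. With the library titled C in place of VM the medians were 0.91 for radial glia and immature astrocyte genes, -3.91 for microglia, -0.88 for oligodendrocyte precursors, 2.05 for ependymal genes, 0.86 for cell cycle inhibitors, -1.16 for interferon-stimulated genes, -2.54 for cytokines, 0.40 for hedgehog genes, 0.83 for Wnt genes and 0.70 for ephrin, semaphorin, slit and netrin genes. With that titled NF they were -1.23 for microglia, -1.69 for the cell cycle, -0.38 for interferon-stimulated genes, -1.33 for cytokines and -0.18 for Y-linked genes. The cause was not tested.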

Other observations

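Secreted growth factors differed in both directions. Of 27 tested, 10 were at least 2-fold higher in VM (9.89% of all genes were) and 4 in Ctx (4.49%), with a median log2 ratio of -0.44. Of the 27, 3 passed the filter only through VM and 1 only through Ctx. In VM, the mesenchymal ligands Fgf10 had 464 reads against 36 in Ctx and Fgf7 1605 against 182, the imprinted growth factor Igf2 was 9.31-fold higher, and the EGF receptor ligand Areg 11.7-fold. Gdnf, which supports dopamine neurons, had 339 reads in Ctx and 865 in VM, 2.57-fold. Bdnf (466 and 662 reads) was within 2-fold. In Ctx, Hgf had 200 reads against 37 (5.37-fold), Fgf1 1458 against 414, Nrg1 2777 against 1069 and Cntf, a factor made by astrocytes, 2670 against 1273. The dopaminotrophic Manf and Cdnf stayed within 2-fold.

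Of 31 tested ephrins, semaphorins, slits, netrins and their receptors, 7 were higher in VM and 3 in Ctx (9.89% and 4.49% of all genes were), with a median of -0.04 (0.02 with the scaling of edgeR or DESeq2). Of the 31, 3 passed the filter only through Ctx and 2 only through VM. Netrin Ntn1, a floor plate guidance cue, had 2370 reads in Ctx and 8931 in VM, Slit2 1324 and 4291, and Slit3 560 and 1922. The receptor Epha5 had 445 in Ctx and 64 in VM, 6.91-fold, and Sema5a 550 and 82, 6.67-fold.

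Outside the lists, large differences toward Ctx were in Chgb, a protein of secretory granules, with 454 reads in Ctx and 10 in VM (45.1-fold), the stearoyl-CoA desaturase Scd4 (23.9-fold), the AMPA receptor subunit Gria2 with 2004 and 120 reads (16.6-fold), the hormone gene Rln1 (15.3-fold), the matrix protein Tnr (12.8-fold), the transcription factor Tfcp2l1 (1867 and 155 reads) and the potassium channels Kcnc1 (320 and 29 reads) and Kcna1 (8.13-fold). Toward VM were Ifitm1 (31 and 943 reads) and Sprr2b (none and 289), whose family holds near-identical copies, so its value is uncertain.

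By FPKM, ferritin Fth1 was highest in both libraries (11500 in Ctx and 10700 in VM), and Vim, Mt1, Mt2, Tmsb4x, Eef1a1 and Ftl1 were among the top 10 in both. Only in the Ctx top 10 were Igfbp2, Lcn2 and Pea15a, a phosphoprotein of astrocytes (3160 and 740). Ctsd, B2m and Lyz2 were only in that of VM. Gapdh had 2 and 1 reads and Ppia none. Both have many near-identical copies, as have Fth1, Mt1, Mt2, Tmsb4x, Eef1a1 and Ftl1, whose levels are therefore uncertain. Y-linked genes were present in both libraries and differed by at most 0.34 on the log2 scale.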
